A study of Bos taurus and Sus scrofa with 6 samples.

Results

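The non-dividing Sertoli cells of prepubertal pigs described here were 3668 of the 9457 barcodes called as cells in 3 pig libraries, out of 27966 called barcodes in the whole series. Barcodes counted as cells from 696, 2444 and 3457 UMIs upward in pig 1, pig 2 and pig 3 (a UMI, or unique molecular identifier, stands for 1 captured transcript). Of these, a barcode entered the Sertoli gate when FSHR, SOX9, AMH, CLDN11, WT1, DHH, INHA and INHBB together had at least 3 UMIs over at least 2 genes. A barcode left the gate when 2 or more genes of another cell type had a UMI, either among the germ cell genes DDX4, DAZL, MAEL and TDRD1, the Leydig cell genes CYP17A1, CYP11A1 and STAR, or the stromal genes DCN, TCF21 and PDGFRA, and it left as a dividing cell when at least 3 of UBE2C, TOP2A, CENPF, NUSAP1 and PCLAF had a UMI. The 8 Sertoli genes and the division genes therefore chose the cells, and their values are a description. DAZL carries no symbol in the pig gene table, so the germ cell condition rested on 3 genes.

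The series profiled unsorted cells of the whole testis from mixed breed pigs aged 3 months (3 libraries) and Holstein cattle aged 4.5 months (3 libraries) with droplet-based single-cell RNA-sequencing, in a search for germ cell gene expression shared between mammals. All testes came from castration and were dissociated with enzymes, and no treatment is described. The testes of each species came from 3 different males, although the library names give pig 2 and pig 3 the same testis number, and likewise cattle 2 and cattle 3, and each library is treated as 1 animal. The pig files held 6245189, 40099873 and 33500750 UMIs, of which the gated cells carried 767618, 12535674 and 2098437.

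Sertoli cells are the somatic cells of the seminiferous epithelium that surround and nourish germ cells. Before puberty these cells divide in response to follicle-stimulating hormone, secrete anti-Müllerian hormone and inhibin, and later stop dividing and join through the junctions of the blood-testis barrier. SOX9 and WT1 are transcription factors of this lineage, CLDN11 is a barrier claudin, DHH is a hedgehog ligand that acts on neighbouring interstitial cells, and INHA and INHBB encode the subunits of inhibin B.

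Of the 8 genes that chose the cells, INHA and CLDN11 were found in most gated cells and AMH in almost none. An INHA UMI was present in 98.8% of gated cells in pig 1, 98.5% in pig 2 and 89.5% in pig 3, and a CLDN11 UMI in 71.1%, 96.1% and 86.1%. SOX9 was present in 41.0%, 72.7% and 65.4%, and WT1 in 8.97%, 42.7% and 53.6%. INHBB was found in 5.02%, 22.5% and 20.7%, DHH in 3.19%, 9.80% and 9.83%, and FSHR, the receptor for follicle-stimulating hormone, in 6.69%, 6.89% and 4.07%. AMH had a UMI in 1 of 658 cells in pig 1, 8 of 2715 in pig 2 and 0 of 295 in pig 3. A count of 0 allows up to 3 counts, for counting error only, so up to 1.02% of such cells could have a detected UMI. The share of cells that express AMH below detection is not limited by these counts. The pattern across the 8 genes is plotted by library for both species.

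Depth differed between the libraries, with medians of 910, 3933 and 5271 UMIs per gated cell. With every called barcode thinned to 696 UMIs (no called barcode was shallower), the INHA share was 91.0%, 72.1% and 62.4% and the CLDN11 share 55.0%, 57.1% and 48.1%. SOX9 then stood at 29.0%, 22.2% and 15.6% and FSHR at 4.26%, 1.33% and 0.339%. Leydig cell barcodes outside the gate, which should lack CLDN11 and FSHR, had a CLDN11 UMI in 4.75%, 17.3% and 5.80% and an FSHR UMI in 0.132%, 1.23% and 0%, at medians of 835, 2812 and 4553 UMIs. INHA, which Leydig cells also express, was found in 33.4%, 45.7% and 34.8% of them.

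In cattle the genes of the gate were found at other rates, where species, age and gene annotation cannot be told apart. AMH was found in 46.5%, 48.7% and 49.8% of the gated cattle cells and FSHR in 19.4%, 33.9% and 38.1%, whereas INHBB had no UMI in any gated cattle cell. INHBB also had none in the cattle barcodes outside the gate, so its absence does not set the gated cattle cells apart. With cattle barcodes thinned to 459 UMIs, AMH was found in 16.7%, 10.8% and 6.80% of the gated cattle cells. FSHR was then found in 5.43%, 7.38% and 2.99%, a range that overlaps the FSHR shares given above for pig at 696 UMIs. The gated pig cells were thus chosen mainly by INHA with CLDN11 or SOX9, and the marker AMH was at or near 0 in all 3 pig libraries.

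**Figure D1:**
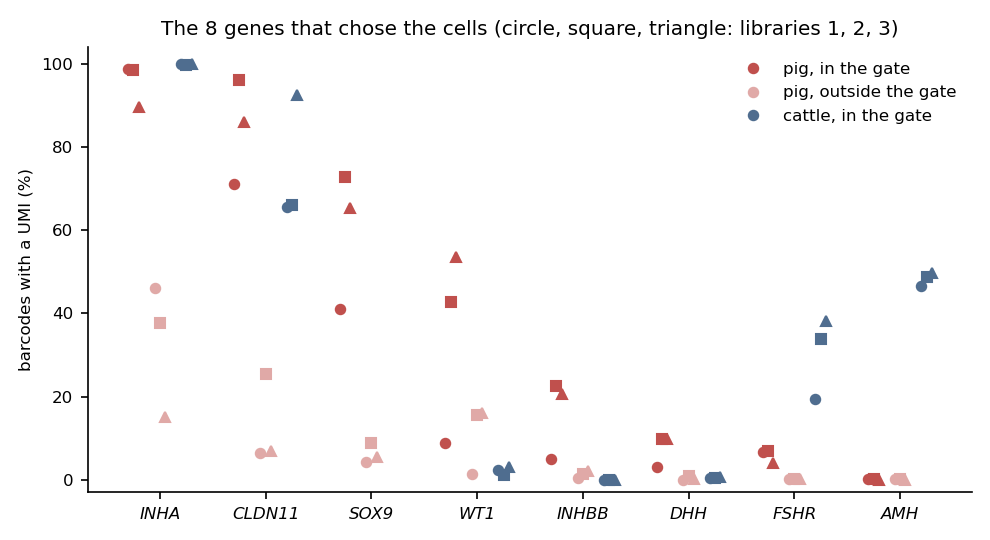
Percent of barcodes with at least 1 UMI (vertical axis) of each of the 8 genes that chose the cells (horizontal axis), in gated pig cells, pig barcodes outside the gate and gated cattle cells; circles, squares and triangles are libraries 1, 2 and 3, and SOX9 has no symbol in the cattle table. INHA lies near the top in the gated cells of both species, while AMH lies at the bottom in pig and between 46.5% and 49.8% in cattle.

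The anti-Müllerian hormone gene, the least often detected of the 8 genes in the gated pig cells, is shown by the 150 bases before its annotated start. AMH lies on the plus strand of chromosome 2 (chr2:76415564-76418315) of Sscrofa11.1, the build of the pig files, in the RefSeq annotation. The window chr2:76415414-76415563 overlapped no annotated exon. Capitals mark exact matches, on either strand, to AAGGTCA (a half-site of NR5A1), AACAAT (a core of SOX factors) or AGATAA (a core of GATA factors).
AMH: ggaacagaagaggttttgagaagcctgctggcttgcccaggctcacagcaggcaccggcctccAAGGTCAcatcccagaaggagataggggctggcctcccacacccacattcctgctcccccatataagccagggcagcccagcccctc
In the 250 bases read before the start, AMH held 1 AAGGTCA, whose first base lay 87 bases before the start, and no exact AACAAT or AGATAA. Only these exact letters were searched, so other forms of the motifs are not marked, and their absence is not shown. Of 19556 pig protein-coding genes, 3.21% held AAGGTCA in such a window, 7.07% AACAAT and 8.08% AGATAA. A match is only a run of letters. The transcripts of the factors themselves were measured at 24.8, 27.5 and 21.4 CPM for NR5A1 and at 89.9, 102 and 69.6 for GATA4 in the gated cells of pig 1, pig 2 and pig 3. CPM here is the count of a gene in the summed cells, scaled by all UMIs of that sum.

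The gated cells made up 20.3% of called barcodes in pig 1 (95% exact binomial confidence interval 18.9 to 21.7), 69.0% in pig 2 (67.6 to 70.5) and 13.0% in pig 3 (11.6 to 14.4). Pig 2 therefore supplied 2715 of the 3668 cells and stood well above both other libraries, beyond counting error. The mean was 34.1% ± 30.5 (SD, n = 3), against 13.5% ± 5.50 (SD, n = 3) with the same gate in cattle, a difference within the spread of the pig libraries (two-sided exact permutation test, P = 0.4, where 3 against 3 libraries cannot go below 0.1). With barcodes of both species thinned to 459 UMIs the shares were 8.10%, 18.6% and 3.12% in pig and 2.93%, 2.79% and 1.93% in cattle (exact permutation P = 0.1). The pig shares also moved with the limits, to 16.1%, 37.2% and 6.74% with barcodes from 500 UMIs upward in every library, and to 4.80%, 57.1% and 9.13% with a gate of 5 UMIs over 3 genes. Pig 2 stayed the highest under both. SOX9 carries no symbol in the cattle table, so the cattle gate rested on 7 genes, of which INHBB had no UMI there. With fewer genes to meet the gate in cattle, the permutation tests cannot decide whether the species differ in their share of Sertoli cells. Another 24, 103 and 34 pig barcodes met the Sertoli condition but were dividing, and 74, 314 and 69 were dropped for a second cell type. Pig 1 and pig 2 shared 20 called barcode sequences, 3 of them gated in both, and pig 3 shared 9 with each, none gated in both.

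**Figure D2:**
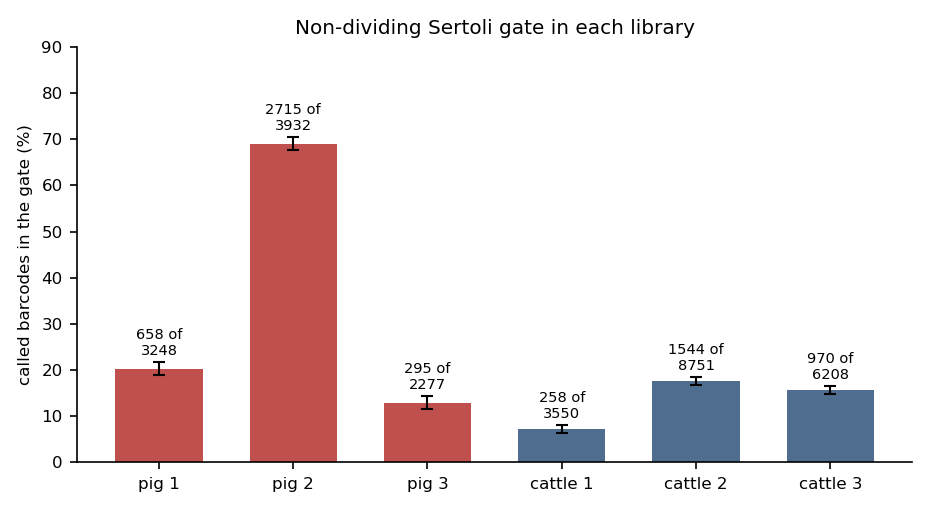
Percent of called barcodes inside the non-dividing Sertoli gate (vertical axis, from 0) in each of the 3 pig and 3 cattle libraries, with exact 95% binomial intervals as error bars and the counts above the bars. Pig 2 stands at 69.0%, and the other 5 libraries lie between 7.27% and 20.3%.

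CLU and CST9L, which the gate did not use, had the highest levels of all genes in the gated cells and were chosen for that, so their levels are a description and no check of the gate. CLU encodes clusterin, a major secreted glycoprotein of Sertoli cells, and CST9L a protein of the cystatin family of protease inhibitors. CLU stood at 26029, 18265 and 15898 CPM in the gated cells and at 7086, 1788 and 193 outside the gate. CST9L stood at 12355, 19503 and 10292 inside and at 3576, 2031 and 155 outside. Together these genes took a median of 4.53%, 4.04% and 4.20% of the UMIs of a gated cell, against 0.379%, 0.331% and 0.0284% outside.

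Not every gated cell carried these transcripts, and pig 3 stood apart. In pig 3, 66 of 295 gated cells (22.4%) had a CLU and CST9L share below 0.1 times the library's gated median, against 23 (3.50%) in pig 1 and 116 (4.27%) in pig 2, a limit chosen after the values were seen. At least 2 genes of the macrophage, lymphocyte, endothelial or erythroid lists had a UMI in 123 gated cells of pig 3 (41.7%), in 354 of pig 2 (13.0%) and in 19 of pig 1 (2.89%). Outside the gate this held for 72.8%, 52.9% and 8.99% of barcodes in pig 3, pig 2 and pig 1. Such a count rises with depth, and the median depth of gated cells was 5271, 3933 and 910 UMIs in the same order. The part of depth was not tested. In those 123 cells the median CLU and CST9L share was 0.568%, and in the remaining gated cells of pig 3 it was 4.65%. The endothelial list summed to 683 CPM in the gated cells of pig 3 and 505 outside, with VWF, a clotting protein of endothelium, at 163 and 117. In pig 1 the sums were 49.5 and 78.1, with PECAM1, CDH5 and EGFL7 at 0, and in pig 2 they were 339 and 1109.

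The edge of the gate behaved differently in each library. Gated cells with exactly 3 UMIs of the 8 genes had CLU at 15490, 2067 and 440 CPM in pig 1, pig 2 and pig 3, while those with 4 or more had it at 29146, 18890 and 19694. Such edge cells numbered 118, 86 and 39. Just outside, 379 barcodes of pig 1 had 3 or more INHA UMIs and none of the other 7 genes, with CLU at 25133 CPM, at the level of the gated cells, and only 24 and 5 such barcodes lay in pig 2 and pig 3. Barcodes with exactly 2 UMIs over 2 of the genes had CLU at 10057, 1741 and 194.

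**Figure D3:**
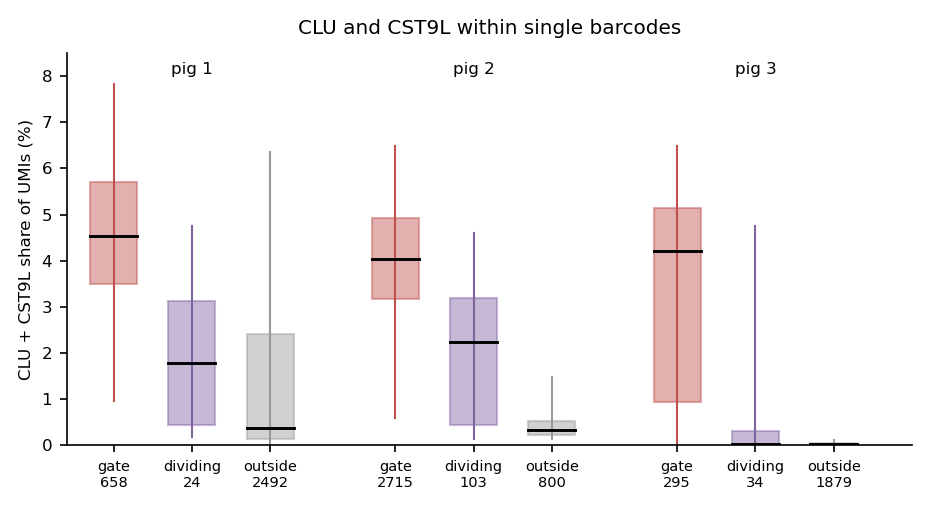
Share of each barcode's UMIs from CLU and CST9L (vertical axis, percent) in gated, dividing and outside barcodes of each pig library, with the number of barcodes under each box; boxes span the quartiles, black lines are medians and thin lines run from the 5th to the 95th percentile. Medians of gated cells lie at 4.53%, 4.04% and 4.20%, and the lower quartile of pig 3 reaches down to 0.936%.

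Markers of other cell types were lower in the gated cells than outside, with the exceptions of endothelial genes in pig 3 and erythroid genes in pig 1 and pig 2. The 11 macrophage genes summed to 167, 89.8 and 631 CPM inside and 530, 919 and 1978 outside, and the 11 lymphocyte genes to 108, 59.2 and 112 inside and 205, 482 and 599 outside. The 8 measured Leydig cell genes summed to 2629, 823 and 698 inside and 10428, 3098 and 1401 outside, with INSL3, the Leydig cell peptide hormone, at 1476 in pig 1. Germ cell genes (12 measured) summed to 267, 97.0 and 352 inside and 691, 578 and 615 outside, and stromal and myoid genes (11 measured) to 324, 828 and 864 inside and 494, 5145 and 2133 outside. Erythroid genes (4 measured) summed to 221, 14.8 and 193 inside and 123, 9.23 and 478 outside, with HBB at 216, 12.8 and 183 inside and 116, 5.97 and 465 outside. Germ, Leydig and stromal genes had been used to drop barcodes, so their lower levels are in part built in. The part of these transcripts in the results below was not tested, beyond leaving out the gated cells that carried 2 or more immune, endothelial or erythroid genes or, separately, those with any of the germ, Leydig or stromal genes of the gate.

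Genes other than the gate were then compared between the gated cells and the called barcodes outside the gate, on counts summed per library. By the quasi-likelihood test of edgeR, with P values adjusted after Benjamini and Hochberg, 178 genes were higher (1.19% of 15020 tested) and 25 lower (0.166%) at an adjusted P of 0.05. Each pair of sums came from the same library, and with the library as a block 1802 genes were higher (12%) and 1396 lower (9.29%), including all those called without it. The calls rested on pig 2 and pig 3: without pig 2 or without pig 3 no gene passed (1466 and 1924 genes at an unadjusted P under 0.05), while without pig 1 310 were higher and 86 lower. Leaving out the gated cells with immune, endothelial or erythroid genes, a choice made after the data were seen, gave 916 higher and 720 lower. No gene passed in edgeR without the block when all other called barcodes were the comparison, with a 500 UMI minimum in every library, or with library size alone as the scaling (3508, 2138 and 3595 genes at an unadjusted P under 0.05), so each call of this comparison made without the block is lost under these settings.

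Of the 15 genes with the largest rises, 14 are described here. B4GALNT1, which makes the gangliosides GM2 and GD2, had 238, 260 and 218 CPM in the gated cells of pig 1, pig 2 and pig 3 and 58.6, 33.1 and 13.4 outside (log2 3.05 ± 0.52, edgeR adjusted P = 0.0395). MRO, a gene first described in the developing testis, had 58.6, 91.3 and 88.6 against 18.6, 12.2 and 3.65 (log2 3.11 ± 0.57, edgeR adjusted P = 0.0442). In both genes the groups were fully apart.

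The creatine genes GATM and SLC6A8 were also among them. GATM, the first enzyme of creatine synthesis, had 92.5, 203 and 93.4 CPM against 23.2, 38.0 and 11.4, and SLC6A8, the creatine transporter, 45.6, 88.9 and 72.0 against 18.6, 13.3 and 7.07. Both rose, by 2.76 ± 0.50 and 2.72 ± 0.43 on the log2 scale (SE, edgeR adjusted P = 0.0442 and 0.0369). NT5E, the ectoenzyme that forms adenosine, had 67.7, 151 and 140 against 25.7, 27.1 and 8.95 (log2 2.84 ± 0.48, edgeR adjusted P = 0.0395). The potassium channel KCNK1, the chloride channel TTYH1, the lipocalin receptor SLC22A17, the adhesion proteins ILDR2 and CNTN3, the guidance ligand SEMA3D, the dystrobrevin DTNA, the small GTPase RND2 and FAM169A rose by between 2.55 (RND2) and 3.07 (ILDR2) on the log2 scale. In all 14 genes the lowest gated sum lay above the highest outside sum, as the plot of these genes shows.

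**Figure D4:**
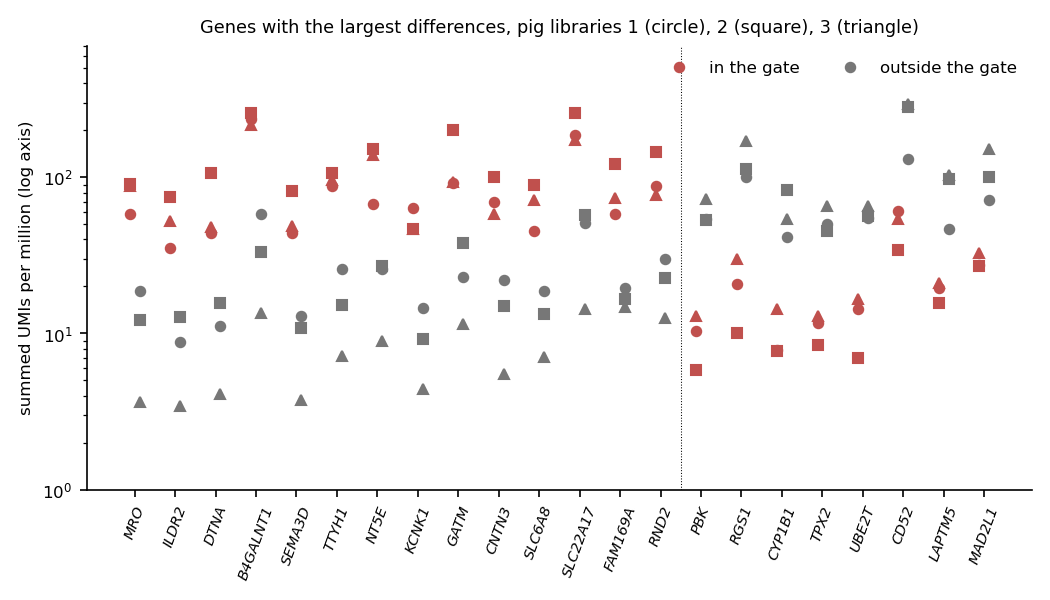
Summed CPM (log axis) of the genes with the largest differences between gated cells and barcodes outside the gate, with pig 1, pig 2 and pig 3 as circles, squares and triangles. The 14 genes left of the dotted line lie higher in the gated cells of every library and the 8 to its right lie lower.

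The 8 genes named as lower in the gated cells were PBK, TPX2, UBE2T, MAD2L1, RGS1, CD52, LAPTM5 and CYP1B1. PBK, a mitotic kinase, had 10.4, 5.82 and 12.9 CPM against 54.0, 53.5 and 72.5 outside (log2 change of -2.43 ± 0.36, SE, edgeR adjusted P = 0.0369). TPX2, UBE2T and MAD2L1, of the spindle, DNA repair and the spindle checkpoint, had log2 changes of -2.07, -2.02 and -1.61. Cells with 3 division genes had been removed from the gate but not from the outside barcodes, so these differences are in part built in. RGS1, a regulator of G protein signals in lymphocytes, had 20.8, 10.1 and 30.0 against 101, 114 and 171, and CD52 and LAPTM5, membrane proteins of blood cells, had log2 changes of -1.96 and -1.87. CYP1B1, a cytochrome P450 enzyme, had 7.82, 7.74 and 14.3 against 41.8, 82.5 and 53.8 (log2 change of -2.29 ± 0.35, SE, edgeR adjusted P = 0.0369).

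Among transcription factors of the gonad, the edgeR fit without the block called none of 13 tested. With the block GATA4, GATA6, NR5A1 and ZFPM2 were higher and LHX9 and LHX2 lower, where NR5A1 turned from a log2 change of 0.77 to -0.040 with barcodes thinned to one depth (both without the block). GATA6 had 36.5, 98.8 and 57.2 CPM in gated cells and 12.3, 8.41 and 1.94 outside, with fully separate groups (log2 3.46, edgeR adjusted P = 0.0549, and 3.39e-04 with the block). GATA4 had 38.0, 23.6 and 8.83 outside, also below every gated sum (log2 2.19, adjusted P = 0.0782, and 2.37e-04 with the block). The median log2 change of the list was -0.27, against -0.05 over all genes tested. Of all genes tested, the block called 12% higher and 9.29% lower. These shares are the background for the block counts of every list in this comparison.

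The activin and TGF-beta family was represented by hormone subunits and their relays. SMAD3, a signal relay of activins and TGF-beta, was the only called gene of 20 tested, with 18.2, 18.6 and 17.6 CPM against 3.72, 5.16 and 4.59 (log2 2.30 ± 0.32, SE, edgeR adjusted P = 0.0369). With the block 6 were higher, INHBA, FSTL3, AMHR2, BMPR1A, SMAD2 and SMAD3, and TGFB1 was lower. INHBA, the beta A subunit of activin and inhibin, had 199, 182 and 106 against 61.2, 48.3 and 15.2 (log2 2.27, edgeR adjusted P = 0.0779, and 1.05e-04 with the block). AMHR2, the receptor for the rarely detected AMH, had 74.3, 83.2 and 48.1 against 18.9, 10.6 and 1.35 (log2 3.08, edgeR adjusted P = 0.0907, and 3.22e-04 with the block). The median log2 change of the list was 0.55.

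Of 25 junction and adhesion genes tested, 3 rose, among them CDH2 and NECTIN1. CDH2, the N-cadherin of Sertoli cell contacts, had 92.5, 110 and 86.7 CPM against 40.6, 23.1 and 29.9 (log2 1.91 ± 0.31, edgeR adjusted P = 0.0376). NECTIN1, a cell adhesion protein, had 9.12, 12 and 12.4 against 2.57, 1.63 and 1.47 (log2 2.89 ± 0.45, edgeR adjusted P = 0.0369). With the block 13 were higher, among them JAM2 and CADM1, and CLDN1 was lower, where it called 12% of all genes tested higher and 9.29% lower. The list's median log2 change was 0.98, and 12 of the 25 were higher in all 3 libraries, as were 16.7% of all genes tested.

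Genes for the uptake of dying germ cells and for feeding germ cells were called in small numbers. AXL, a receptor for apoptotic cells, and PROS1, the protein S that bridges it to them, rose among 17 tested. PROS1 had 232, 386 and 372 CPM against 86.7, 102 and 47.6 (log2 2.35 ± 0.34, edgeR adjusted P = 0.0369), and AXL 69.0, 169 and 96.7 against 22.0, 35.8 and 20.5 (log2 2.41 ± 0.38, adjusted P = 0.0369). With the block MERTK, TYRO3, GAS6, GULP1 and FABP3 joined them and MFGE8 was lower. Of 20 genes of glucose use and lactate supply PKM, the last enzyme of glycolysis, rose, with 369, 475 and 411 against 164, 256 and 186 (log2 1.35 ± 0.24, edgeR adjusted P = 0.0425). The block added LDHB and 6 others as higher and gave LDHA, LDHC and PFKP as lower. LDHA had 14.3, 25 and 66.7 inside against 45.8, 113 and 143 outside, and LDHB 453, 588 and 708 against 365, 560 and 464.

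Secreted proteins and niche signals were uneven. APOA1, an apolipoprotein, had 5675, 7095 and 5872 CPM against 1588, 2753 and 932 and was the only called gene of 17 secreted or transport proteins (log2 2.13 ± 0.37, edgeR adjusted P = 0.0399). CLU missed the threshold without the block (log2 2.98 ± 1.03, edgeR adjusted P = 0.152) and passed it with the block (0.00141), and SERPINA5, a protease inhibitor of semen, did the same (log2 3.16 ± 0.82, adjusted P = 0.0906, and 6.16e-04). The outside sum of pig 1 held the barcodes with INHA alone and high CLU described above. In all, the block called 7 of the 17 higher and 4 lower, the last being SERPINF1, CTSL, MGP and APOE. Of 15 ligands of the germ cell niche WNT6 rose, with 26.1, 22.6 and 24.8 against 6.01, 5.43 and 2.41 (log2 2.74 ± 0.42, edgeR adjusted P = 0.0369). KITLG, the ligand of KIT on spermatogonia, had 7.82, 41.6 and 49.6 against 6.29, 36.6 and 14.5, and CXCL12 16.9, 36.0 and 55.8 against 64.9, 236 and 74.9 (adjusted P = 0.349 and 0.172, and 0.0231 and 0.0159 with the block). GDNF, the growth factor of spermatogonial stem cells, had 0, 8 and 1 UMIs in all the gated cells.

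Immediate early genes, which are switched on within minutes by growth signals or by handling of tissue, summed to 3928, 7324 and 6184 CPM in the gated cells and 1756, 6994 and 3431 outside. ATF3 was the only called gene of 18, with 147, 389 and 160 against 41.2, 83.6 and 47.1 (log2 2.34 ± 0.45, edgeR adjusted P = 0.0498), and the block called 7 as higher, among them FOS and EGR1. HSD17B3, an enzyme of testosterone synthesis listed with the Leydig cell genes, had 585, 415 and 258 inside against 154, 36.9 and 5.18 outside (log2 2.95, edgeR adjusted P = 0.152, and 5.17e-04 with the block). Of 17 cholesterol synthesis genes none was called in edgeR, and the block called 1 higher, NSDHL, and 1 lower.

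The other lists held few calls. PDE4D, a phosphodiesterase that ends the cyclic AMP signal of follicle-stimulating hormone, was the only called gene of 14 hormone receptors and relays (log2 2.08, edgeR adjusted P = 0.0454). None of 17 retinoid, 10 hedgehog, PDGF and VEGF, 16 basement membrane, 15 cytoskeleton or 11 IGF genes was called in edgeR without the block. With it the retinoic acid enzyme ALDH1A1 and the ligand PDGFA were among the higher genes (edgeR adjusted P = 0.00306 and 1.14e-04 with the block), and PTCH1 and HHIP, targets of hedgehog signals, were among the lower ones. The block called 4 retinoid genes higher and 1 lower, and 2 and 3 of the hedgehog, PDGF and VEGF list, 2 (LAMA1 and AGRN) and 3 (COL4A4, COL4A5 and NID1) of the basement membrane list, 2 (TPM1 and DSP) and 4 (KRT8, DES, ACTG1 and EPCAM) of the cytoskeleton list and 1 (IGF2R) and 3 (IGF1, IGFBP6 and IGF2BP3) of the IGF list. Over all genes tested in this comparison, the block called 12% higher and 9.29% lower. The counts of higher genes in the basement membrane, cytoskeleton and IGF lists lay near that share. Among markers of other cells, 10 of 11 macrophage, 6 of 11 lymphocyte, 6 of 9 germ cell and 6 of 8 stromal and myoid genes were lower with the block and none higher. Of 5 Leydig cell genes NR5A1 and HSD17B3 were higher and INSL3 and CYP19A1 lower with it, and none of 10 endothelial and none of 4 erythroid genes was called either way.

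Compared with the 161 dividing barcodes of the Sertoli gate (24, 103 and 34), the non-dividing cells had higher levels of CLU, CST3 and APOA1, which were 3 of 16 secreted or transport proteins tested (10 with the library as a block). Most of the 34 dividing barcodes of pig 3 were poor in CLU and CST9L, as given below. In edgeR's quasi-likelihood test 142 genes were higher (1.09% of 13013 tested) and 244 lower (1.88%), and with the library as a block 1694 were higher (13.0%) and 1179 lower (9.06%). The split had been made on 5 division genes, and 21 of 28 other division genes were lower, which describes the split. MKI67, the Ki-67 proliferation antigen, had 5.21, 0.638 and 4.29 CPM against 70.2, 49.9 and 51.3. CDCA8, CKAP2, CDCA3, SGO1, TK1, CENPA, DLGAP5, HMMR and BUB1B, also genes of mitosis or DNA synthesis, had log2 changes between -5.02 (CDCA8) and -4.13 (BUB1B).

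In pig 3 the dividing barcodes were poor in Sertoli transcripts. Their median CLU and CST9L share was 0.0326%, close to the 0.0284% of outside barcodes, and 26 of 34 fell below 0.1 times the gated median, against 6 of 24 in pig 1 and 24 of 103 in pig 2. Immune, endothelial or erythroid genes (2 or more) were found in 23 of these 34. Germ cell genes summed to 749, 802 and 794 CPM in the dividing cells of pig 1, pig 2 and pig 3, above the 267, 97.0 and 352 of the non-dividing cells. Some markers of somatic cells other than Sertoli cells were higher in the non-dividing cells with the block. In that fit 6 of 8 stromal and myoid genes were called higher (LUM, COL1A1, COL1A2, COL3A1, ACTA2 and TAGLN), with 4 of 5 Leydig cell genes (INSL3, FDX1, NR5A1 and HSD17B3), 4 of 11 macrophage genes and 3 of 10 endothelial genes, and none lower. Without the block HSD17B3 was the only one called. The stromal and myoid list summed to 324, 828 and 864 CPM in non-dividing and 93.7, 667 and 318 in dividing cells, led by TAGLN (80.8 and 186) in pig 1 and pig 2 and by COL1A2 (169) in pig 3. The Leydig cell list summed to 2629, 823 and 698 against 1018, 435 and 346, the macrophage list to 167, 89.8 and 631 against 93.7, 43.9 and 399, and the endothelial list to 49.5, 339 and 683 against 105, 316 and 355, where pig 1 ran the other way. Median depth also differed, at 2638, 5785 and 20534 UMIs per dividing cell. The part of these differences in the comparison was not tested, but without pig 3 there were 66 higher and 189 lower genes, and without pig 1 there were 5 and 105.

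CLU had 26029, 18265 and 15898 CPM in non-dividing and 6415, 6974 and 1376 in dividing cells (log2 2.35 ± 0.49, edgeR adjusted P = 0.0253). CST3, the cystatin C protease inhibitor, had 6684, 6601 and 4453 against 2119, 2569 and 772 (log2 2.01 ± 0.40, edgeR adjusted P = 0.0214), and APOA1 was higher too (log2 1.85 ± 0.37, adjusted P = 0.0208). In each of these genes every non-dividing sum exceeded every dividing sum. The leading genes also held CIDEA, a lipid droplet protein, with 399, 325 and 261 against 70.2, 103 and 21.4, and PLA2G16, a phospholipase, with 232, 269 and 248 against 11.7, 73.6 and 31.3. ETNK2, an ethanolamine kinase, the adenosine receptor ADORA1, RAB31, CSDC2, TBXAS1 and GATM were also leading genes, with log2 changes from 2.31 (TBXAS1) to 2.89 (ETNK2). VIM, the intermediate filament protein of Sertoli cells, ALDOA, a glycolytic enzyme, and GULP1, an engulfment adaptor, were also higher. Without pig 1, 18 of the 33 named genes lost the call, CLU, CST3 and APOA1 among them (edgeR adjusted P = 0.151, 0.146 and 0.142).

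Lower in the non-dividing cells, beside division genes, were DMRT1, CRABP1 and ELAVL2. DMRT1, a transcription factor of Sertoli cells and spermatogonia, had 87.3, 83.1 and 125 CPM against 457, 335 and 435 in dividing cells (log2 change of -1.75 ± 0.28, SE, edgeR adjusted P = 0.00585). CRABP1, a carrier of retinoic acid, had 439, 243 and 301 against 1721, 835 and 1255 (log2 change of -1.61 ± 0.33, edgeR adjusted P = 0.0233), and ELAVL2, an RNA-binding protein listed with germ cells, had 52.1, 21.8 and 85.3 against 222, 216 and 266 (log2 change of -1.90 ± 0.43, adjusted P = 0.0358). ELAVL2 was the only called gene of 6 germ cell markers, and the block called 5 lower (UCHL1, ELAVL2, SYCP3, KIT and TEX101) and none higher. None of the 22 junction genes tested was called in edgeR without the block, and 13 were higher with it. CCND2, a D-type cyclin of the division list, ran the other way, with 651, 350 and 132 against 176, 190 and 48.4 (log2 1.82, edgeR adjusted P = 0.122, and 3.06e-09 with the block).

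**Figure D5:**
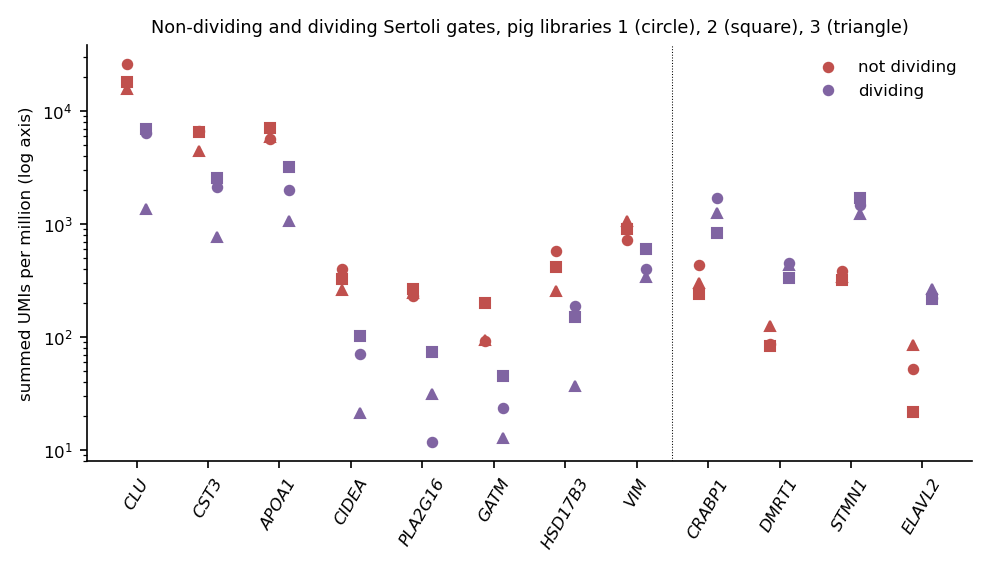
Summed CPM (log axis) in non-dividing and dividing barcodes of the Sertoli gate in pig 1 (circle), pig 2 (square) and pig 3 (triangle) for 8 genes higher in the non-dividing cells, left of the dotted line, and 4 lower. CLU lies between 15898 and 26029 in the non-dividing cells and between 1376 and 6974 in the dividing cells.

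The difference between Sertoli and outside barcodes was next set against that of cattle, where the same gate took 2772 cells. In the edgeR interaction test on genes with a symbol in both species, the difference was larger in pig for 387 genes (3.06% of 12658) and smaller for 183 (1.45%), and with the library as a block for 1551 (12.3%) and 909 (7.18%). Species, age and gene annotation cannot be told apart here. Leaving out cattle 2 or cattle 3 left 65 genes larger in pig each time, with 29 and 21 smaller, and leaving out pig 2 or pig 3 left 190 and 150 larger with 109 and 62 smaller. Of 20 genes followed in this comparison, 12 lost the call without pig 2, 12 without cattle 3, 11 without cattle 2 and 12 with barcodes thinned to one depth.

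Several genes with a larger fitted difference in pig were at or near 0 in the gated cattle cells, where a fitted change is not a bound. HEY1, a Notch target, had 13.0, 48.6 and 39.1 CPM in gated pig cells and 6.01, 16.6 and 3.77 outside, and none in gated cattle cells. The prostaglandin E synthase PTGES had 87.3, 216 and 133 in gated pig cells, 28.6, 31.5 and 6.24 outside, and at most 0.617 in gated cattle cells. The peptide hormone CCK (138, 83.6 and 138 in gated pig cells), the calcium-binding parvalbumin PVALB (171, 289 and 101), the phosphatase DUSP26 (61.2, 94.7 and 59.1) and FAM167B (30.0, 32.1 and 72.4) had at most 0.663 CPM in any gated cattle sum. Cattle values outside the gate are not given for these genes, HEY1 or PTGES, so the part of cattle in the differences is not shown. CA3, a carbonic anhydrase, was measured in both species and ran in opposite directions, with 31.3, 49.1 and 31.5 in gated pig cells against 13.7, 20.6 and 3.95 outside, and 7.61, 6.63 and 26.8 in gated cattle cells against 91.4, 168 and 590 outside (difference of the log2 changes 5.81 ± 1.06, SE, edgeR adjusted P = 0.00728).

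The reverse held for genes with a smaller fitted difference in pig. AARD, an alanine and arginine rich protein, had 586, 558 and 463 CPM in gated cattle cells and 55.5, 76.5 and 24.7 outside, and no UMI in gated pig cells. EPCAM, an epithelial adhesion protein, had 60.9, 34.5 and 24.8 in gated cattle cells against 11.6, 13.5 and 12.9 outside, and 0, 0.239 and 0.477 in gated pig cells against 3.15, 3.26 and 3.95 outside. KLC3, F10, SLC7A3, LTF, TTLL7 and HPGD had at most 4.77 CPM in any gated pig sum and between 16.0 and 290 in the gated cattle sums. SQLE and CYP51A1, enzymes of cholesterol synthesis, differed in the other sense, with SQLE at 56.0, 92.1 and 62.0 in gated pig cells against 71.5, 32.8 and 89.7 outside, and at 5.08, 12.2 and 10.5 in gated cattle cells against 39.9, 89.3 and 41.3 (difference 2.52 ± 0.64, edgeR adjusted P = 0.0384). With the block 11 of 16 cholesterol synthesis genes had a larger difference in pig and none a smaller, and the list's median was 1.4 without the block, against 0.26 over all genes. Of the 7 lists of markers of other cell types, 3 had a larger median than the cholesterol list and 4 a smaller one. The median without the block was 1.96 for 8 stromal and myoid genes, 2.15 for 8 endothelial genes and 2.27 for 9 germ cell genes, and the block called 7, 3 and 2 of them larger in pig and none smaller. It was 0.31 for Leydig cell, -0.016 for macrophage, 0.61 for lymphocyte and 0.70 for erythroid genes, of which the block called CD52 larger and CD68 and LYZ smaller. Outside the gate the stromal and myoid list summed to 494, 5145 and 2133 CPM in pig and to 5827, 8873 and 9963 in cattle. The part of these cells in the difference between species was not tested.

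Among the gated cells themselves, the genes that varied most beyond counting noise, among those with a symbol and without gate and mitochondrial genes, by their lowest value over the libraries, were CST3, CLU, ACTB, CST9L, CD74, EGR1, B2M, APOA1, TMSB10 and LGALS1, of 612 genes with at least 0.2 UMIs per cell in every library. The measure was the variance of Pearson residuals, about 1 for counting noise, and its median over all 612 genes was 1.07, 1.16 and 1.45 in pig 1, pig 2 and pig 3. CLU reached 7.15, 9.24 and 40.1 and CST9L 5.43, 10.2 and 37.0. CD74 and B2M, of antigen presentation, reached 4.68, 21.6 and 19.2 and 3.20, 20.7 and 24.4, and a CD74 UMI was found in 9.57%, 21.8% and 55.6% of the gated cells. EGR1, an immediate early transcription factor, reached 5.67, 4.03 and 7.52. Without the gated cells above a doubled library median (43, 214 and 40 cells), 7 of the 10 genes stayed among the 10 most variable genes of this kind. CD74, APOA1 and LGALS1 did not, and CD74 has no value without those cells.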

How the data were processed

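Droplet-based single-cell RNA-sequencing counts from 3 pig and 3 cattle libraries were used. The authors deposited UMI counts per gene and barcode, made with Cell Ranger (2.1.0 per the labels, 3.0.2 in the pig file headers) on Sscrofa 11.1 and ARS-UCD 1.2, and barcodes from 500 UMIs upward were held in the pig files. The minimum for a called cell was the 99th percentile of the 3000 barcodes with the most UMIs, divided by 10, and no doublet caller was run. Levels are CPM of counts summed over the cells of a library. No column lacked a sample (0).

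Summed counts of genes with at least 10 UMIs over all sums of a comparison were fitted in R 4.3.3 with edgeR 4.0.16 (TMM factors, quasi-likelihood test, Benjamini-Hochberg adjustment, calls at 0.05). The fits were tested on simulated data. Alternatives were DESeq2 1.42.0, library size alone, no filter, other gates, depths and comparison cells, and each library left out. Sums of the same library deviated together (correlations 0.64, 0.53 and 0.57 against outside barcodes, and 0.36, 0.42 and 0.42 against dividing cells), since they are 1 library each. The fit with the library as a block is therefore also printed, though not for every gene or list whose call it changes.

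Genes named were those of the gate and the lists, and those with the largest fitted changes past the threshold that went the same way in all 3 libraries with at least 50 CPM on the higher side (15 higher and 10 lower against outside barcodes, where 8 qualified as lower, 10 each way against dividing cells, 8 each way against cattle), without gate and mitochondrial genes. The members, gene lists and tests were chosen with earlier results of these data known. Some items that these rules name are not reported here. Intervals and limits cover counting error only.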

Additional observations from a re-analysis of the deposited data

Results flagged for a closer look

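The difference between gated and outside cells was not the same in pig and cattle for 15 named genes, by the edgeR interaction test. The fitted pig minus cattle difference on the log2 scale was 7.99 for HEY1, 6.82 for FAM167B, 6.55 for PTGES, 6.26 for CCK, 5.91 for PVALB, 5.81 for CA3 and 5.75 for DUSP26. It was -8.07 for AARD, -6.27 for KLC3, -6.26 for F10, -5.49 for SLC7A3, -5.48 for LTF, -5.12 for EPCAM, -5.04 for TTLL7 and -4.85 for HPGD. For genes at or near 0 in the gated cells of 1 species these fitted values depend on the prior count and are no bound. Of 20 genes followed in this comparison, these among them, 12 lost the call without pig 2, without cattle 3 or when thinned.

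Sertoli transcripts were also present in pig barcodes below the cell minimum, which entered no comparison. In 2972, 18988 and 6531 such barcodes CLU stood at a mean of 10400 CPM and CST9L at 7400. CLU was at 15152, 14016 and 2079 in pig 1, pig 2 and pig 3.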

How the results depend on the processing

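Counts of calls moved with the processing, given here as higher and lower genes. Against outside barcodes (178 and 25), DESeq2 gave 635 and 422, barcodes with no UMI of the 8 genes as comparison 402 and 112, a gate of 5 UMIs over 3 genes 463 and 465, leaving out cells above a doubled median depth 997 and 802, leaving out cells with any second-type gene 595 and 694, no filter 366 and 70, and thinning 107 and 73. The edgeR count was 0 and 0 against all other called barcodes, with a 500 UMI minimum and with library size alone (3508, 2138 and 3595 genes at an unadjusted P under 0.05). Leaving out 1 library gave 0 to 310 higher and 0 to 86 lower. Against dividing cells (142 and 244), the settings that moved a count gave 373 higher (DESeq2), 426 and 404 (5 UMIs over 3 genes), 247 higher (500 UMI minimum), 453 lower (library size alone, against 95 higher), 910 and 926 (deep cells left out), 534 and 650 (any second-type gene left out), 445 and 389 (no filter) and 97 lower (thinned), and leaving out 1 library gave 5 to 233 higher and 105 to 189 lower. For pig against cattle (387 larger and 183 smaller), DESeq2 gave 434 smaller, a 500 UMI minimum 253 larger, leaving out deep cells 365 smaller and thinning 180 and 49, and leaving out 1 library gave 65 to 416 larger and 21 to 278 smaller. Leaving out gated cells with 2 or more immune, endothelial or erythroid genes, chosen after the data were seen, gave 916 and 720 against outside barcodes and 795 and 735 against dividing cells. The mean pig share of 34.1% became 20.0% at a 500 UMI minimum, 23.7% with 5 UMIs over 3 genes, 17.7% thinned and 9.93% at the depth shared with cattle, within 1 SD of the libraries. The cattle share was 6.13% with 5 UMIs over 3 genes, 2.42% thinned and 2.55% at the depth shared with pig, the last chosen after the data were seen. NR5A1 turned from 0.77 to -0.040 (log2) when thinned. The causes were not tested.

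With the library as a replicate block the counts were 1802 and 1396 against outside barcodes, 1694 and 1179 against dividing cells, and 1551 and 909 for pig against cattle. Of the tests of single named genes under the alternatives, 1122 kept their direction and side of the threshold, 310 lost the call, 93 gained it and 1 reversed.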
